A study of Bos taurus with 6 samples.

Results

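Keratins are the intermediate filament proteins of epithelial cells, and every keratin filament is built from a type I and a type II chain in equal amounts. Simple epithelia, a single layer of cells, use KRT8 with KRT18 and add KRT7 and KRT19, whereas the basal layer of stratified epithelia uses KRT5 with KRT14 and KRT15, and the layers above it switch to pairs such as KRT1 with KRT10 or KRT4 with KRT13. The rumen wall is lined by a stratified epithelium, and butyrate, a short-chain fatty acid made by rumen microbes, is both a fuel for that epithelium and an inhibitor of histone deacetylases. The keratin family was followed here in bovine rumen epithelial primary cells (REPC), and its members were all rows whose gene name was KRT followed by a number and at most 1 letter. This rule found 53 rows with 51 names (KRT31 and KRT85 each had 2 rows) among 32183 listed genes.

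The cells came from 1 Holstein bull calf, 2 weeks old and fed milk replacer alone. RNA was sequenced from 3 control cultures and from 3 cultures kept for 24 h with 5 mM butyrate in the medium (REPC and BT_REPC in the labels). All 6 cultures share the animal, so p-values measure the spread between cultures and not between animals. Levels are FPKM, fragments scaled to the length of the gene and to the mapped fragments of the culture. They are scaled for comparison between genes, with limits given below for KRT17 and for the copies of KRT6A. The summed FPKM of a culture was 678035 to 681912 in the control and 619401 to 629037 in the butyrate group. No pair of cultures from a group correlated below 0.9948 across genes (Pearson's r, log2 scale), and pairs across the groups ranged from 0.9626 to 0.9663; genes are not independent replicates.

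By the tissue in which most are best known, the 53 rows fell into 7 simple keratins, 10 basal or stress keratins, 12 suprabasal keratins, 8 keratins of the hair follicle's inner root sheath, 15 of the hair shaft and the keratin-like KRT222. KRT75, of the hair follicle's companion layer, was counted with the basal or stress keratins and so is not in the hair sums. The family was expressed unevenly. In the control cultures 12 rows reached a mean of 1 FPKM, in the butyrate cultures 13 did, and 6 rows were above 100 FPKM in both (KRT17, KRT8, KRT7, KRT19, KRT5 and KRT6A). In contrast, 7 rows were listed at 0 in all cultures and 19 in all control cultures. KRT71 and KRT36 were at 0 in all butyrate cultures but not in all control cultures. Over all listed genes, those at 0 throughout a group shared rank 17969 by mean FPKM in the control and 19138 in the butyrate group. Fewer genes in general were thus at 0 after butyrate.

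Of the 53 rows, 20 reached the minimum mean of 0.1 FPKM over the 6 cultures and were tested among 15813 genes in a single limma fit (two-sided, Benjamini-Hochberg adjustment over all of them). Butyrate upregulated 13 keratins (KRT14, KRT15, KRT19, KRT16, KRT86, KRT18, KRT9, KRT85, KRT10, KRT78, KRT6A, KRT7 and KRT8), and 4 were lower (KRT75, KRT4, KRT80 and KRT5). The background was high in both directions, with 32.5% of all tested genes higher and 25.9% lower at the same threshold, 58.4% in all. The median log2 fold change was 0.90 over the tested keratins and 0.10 over all tested genes. KRT16, KRT86 and KRT3 passed the minimum only through their butyrate level and KRT75 only through its control level, so the filter itself favoured a difference in these rows. In bulk RNA, more cells of a type and more RNA per cell cannot be told apart.

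The rises and falls did not divide evenly between the filament types. Of 9 tested type I rows, 7 rose and none fell, with KRT13 and KRT17 not called by limma at an adjusted p below 0.05. Of 11 tested type II rows, 6 rose, 4 fell and KRT3 was not called. Of all tested genes, 32.5% rose and 25.9% fell. Quantile normalization removed the rises of KRT9, KRT10 and KRT16 (type I) and of KRT78, KRT85 and KRT86 (type II), and the fall of KRT5 (type II). The counts include KRT16 (type I) and KRT86 (type II) as rises and KRT75 (type II) as a fall, rows in which the filter itself favoured a difference. The difference between the types was not tested. Under the stricter definition of differentially expressed genes (DEGs), with a Bonferroni-adjusted p below 0.05 and a log2 fold change beyond 2, KRT14 and KRT15 were upregulated DEGs and no keratin was a downregulated DEG. Of all tested genes, 2.46% were upregulated and 1.51% downregulated DEGs. KRT19 lay just short of the fold limit, at a log2 fold change of 1.99.

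**Figure D1:**
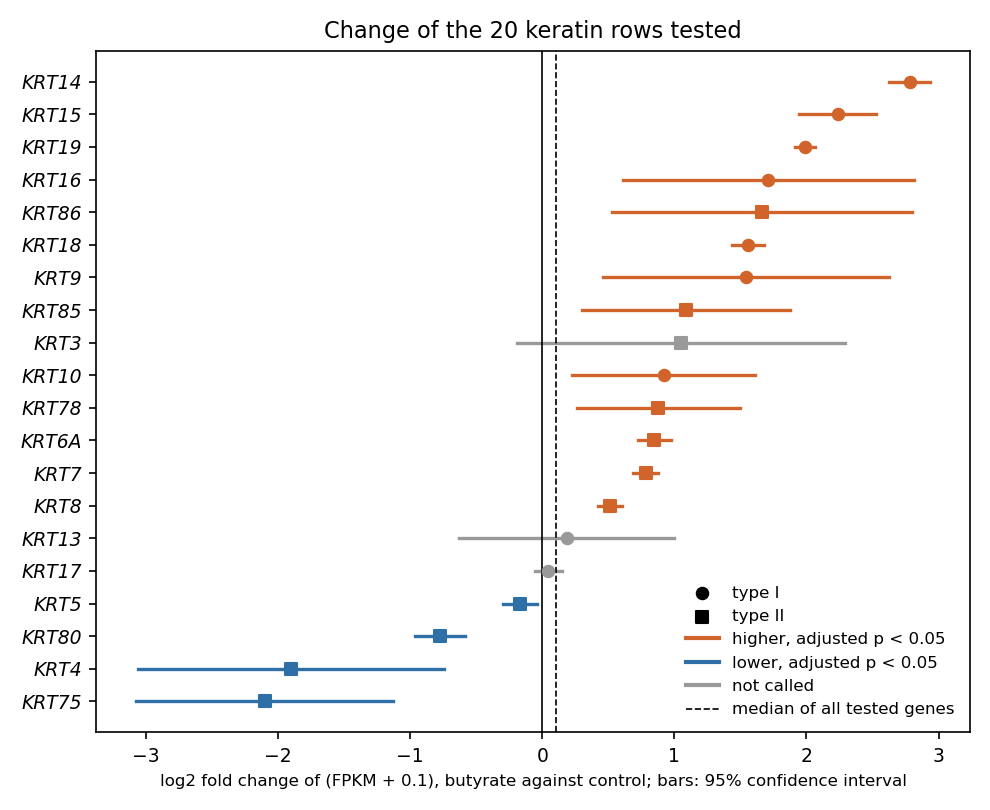
Log2 fold change of FPKM + 0.1, butyrate against control, for the 20 tested keratin rows, with bars for the 95% confidence interval of the limma fit; circles are type I and squares type II keratins, and the dashed line is the median of all tested genes at 0.10. KRT14 stands highest at 2.78 with a narrow interval, whereas the low-level rows KRT16, KRT86, KRT9, KRT4 and KRT75 had wide ones.

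Among the simple keratins, KRT19, a type I keratin that lacks most of the usual tail domain, changed most. Its level was 486, 486 and 506 FPKM in the control cultures and 1922, 1985 and 1953 FPKM in the butyrate cultures. The groups lay far apart and each was tight, with means of 492 ± 11.5 and 1953 ± 31.2 FPKM (SD, n = 3), a ratio of 3.97. The log2 fold change was 1.99 ± 0.03 (SE; limma, Benjamini-Hochberg adjusted p = 1.9e-08). By mean FPKM, KRT19 moved from rank 250 of the listed genes in the control group to rank 27 in the butyrate group.

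KRT18, the type I partner of KRT8, was listed at 78.6, 72.8 and 77.6 FPKM in the control and at 221, 238 and 217 FPKM in the butyrate cultures. Its log2 fold change was 1.56 ± 0.05 (SE; limma, Benjamini-Hochberg adjusted p = 1.2e-07). The type II simple keratins rose by less. KRT7, found in ductal and glandular epithelia, stood at 896, 928 and 962 FPKM without and at 1643, 1522 and 1629 FPKM with butyrate, a log2 fold change of 0.78 ± 0.04. KRT8 stood at 1309, 1414 and 1416 FPKM without and at 1995, 1931 and 1989 FPKM with butyrate, a log2 fold change of 0.52 ± 0.04. Both type II keratins passed the limma test (Benjamini-Hochberg adjusted p = 1.2e-06 and 8.1e-06), and in neither did the groups overlap. Over all tested genes, all butyrate values lay above all control values in 36.1% and below them in 28.9%, so that separation alone was common.

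KRT80, a type II keratin grouped here with the simple ones although it is found in many epithelia, went the other way. It fell from 51.1, 45.9 and 43.0 FPKM to 28.6, 25.1 and 28 FPKM, a log2 fold change of -0.77 ± 0.08 (limma, Benjamini-Hochberg adjusted p = 6.5e-05). The gut keratin KRT20 and KRT23 were not tested, with no culture above 0.17 FPKM. Thus 4 of the 5 tested simple keratins rose and KRT80 fell, beside 32.5% higher and 25.9% lower among all tested genes.

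**Figure D2:**
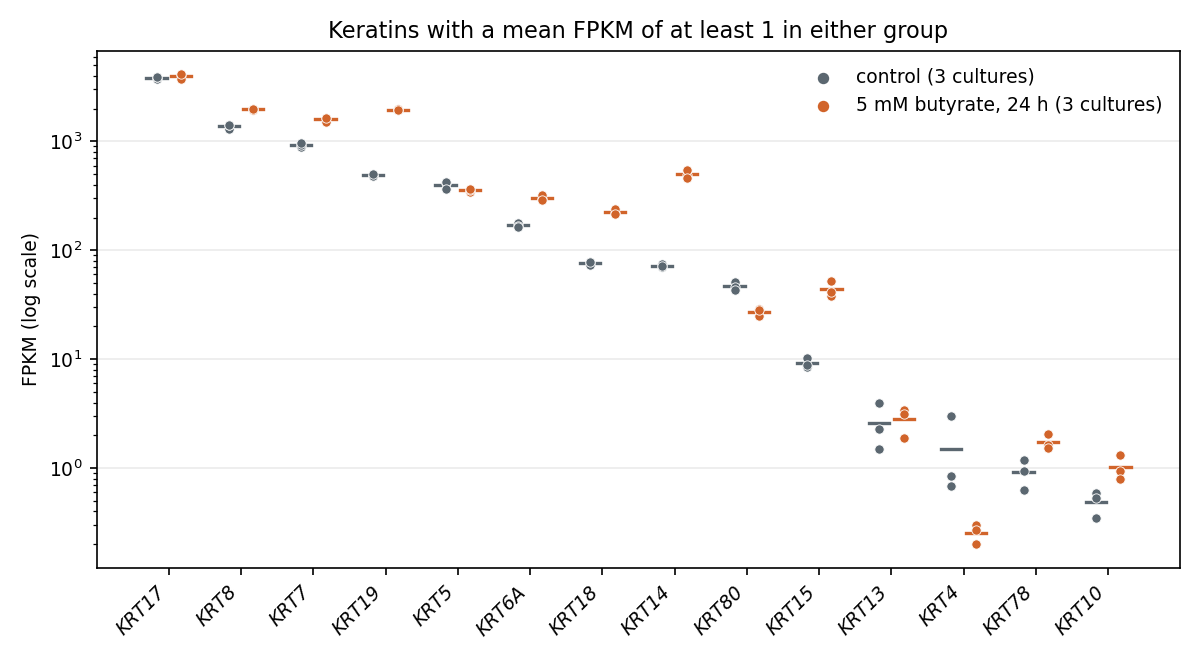
FPKM on a log axis for the 14 keratins with a mean of at least 1 FPKM in either group, ordered by control mean; each point is 1 culture and each bar the mean of 3 cultures. The points of the abundant keratins lie close together, and KRT19, KRT14 and KRT15 show the widest gaps between grey control and orange butyrate points among the rises.

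The type I basal keratins rose while their type II partner did not. KRT14, the type I keratin of basal cells, was at 70.6, 74.9 and 71.9 FPKM in the control and at 492, 552 and 457 FPKM in the butyrate cultures. This was the largest rise among the called keratins with expression in every control culture, with a mean ratio of 6.90 and a log2 fold change of 2.78 ± 0.07 (limma, Benjamini-Hochberg adjusted p = 3.2e-08), and its rank among all genes went from 1635 to 193. KRT15, a further type I keratin of basal cells, rose from 8.42, 10.3 and 8.89 FPKM to 38.2, 52.2 and 41.5 FPKM, a log2 fold change of 2.24 ± 0.13 (limma, Benjamini-Hochberg adjusted p = 1.5e-06).

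KRT5, the type II partner of both, was at 415, 422 and 366 FPKM in the control and 347, 357 and 364 FPKM in the butyrate cultures. The lowest control culture and the highest butyrate culture were almost equal, and the log2 fold change was -0.17 ± 0.06 (limma, Benjamini-Hochberg adjusted p = 0.032). This small fall depended on the scale. Rescaling each culture to TPM moved the median of all tested genes by 0.12 on the log2 scale and left KRT5 at -0.05 (limma, Benjamini-Hochberg adjusted p = 0.51), while quantile normalization moved that median by -0.15 and turned KRT5 to 0.06 (limma, Benjamini-Hochberg adjusted p = 0.39).

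Among keratins induced in wounded or stressed epidermis, KRT6A was at 179, 166 and 162 FPKM without and at 298, 322 and 292 FPKM with butyrate. Its log2 fold change was 0.85 ± 0.05 (limma, Benjamini-Hochberg adjusted p = 3.1e-06). The near-identical copies KRT6B and KRT6C were not tested, and since the study kept uniquely mapped reads alone, the division of reads between the 3 copies is uncertain. KRT16, the usual type I partner of KRT6A, was listed at 0 in every control culture and at 0.169, 0.149 and 0.425 FPKM in the butyrate cultures, so no fold is given. It passed the limma test (Benjamini-Hochberg adjusted p = 0.014), although its level stayed far below that of KRT6A.

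KRT75, a type II keratin of the hair follicle's companion layer, was at 0.486, 0.452 and 0.290 FPKM in the control cultures. After butyrate it was at 0.0595 FPKM in butyrate culture 2 and at 0 in the other two. Its log2 fold change was -2.10 ± 0.43 (limma, Benjamini-Hochberg adjusted p = 0.0027), and it passed the minimum through its control level. The fragments behind such low values can be read from the confidence bounds that accompany each FPKM, because the bounds of a count spread by about 2 square roots of that count. For the 92 keratin values that imply fewer than 12 fragments, 80.4% came out whole to within 0.05, against 57.0% of such values over all genes, so the reading is an approximation. For KRT75 they imply 7, 6 and 4 fragments in the control cultures and 1 fragment in butyrate culture 2. For KRT16 they imply 2, 2 and 5 fragments in the butyrate cultures. These numbers cover counting error alone.

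KRT17, a type I keratin of stressed, migrating and follicular keratinocytes, was the most abundant keratin by FPKM in every culture. It was listed at 3762, 3932 and 3881 FPKM in the control and at 4107, 3726 and 4135 FPKM in the butyrate cultures. The groups overlapped, the log2 fold change was 0.05 ± 0.04 with a 95% interval of -0.05 to 0.15 (limma, Benjamini-Hochberg adjusted p = 0.39), and KRT17 ranked 5 among all genes in both groups. After rescaling to TPM it was called higher, at 0.17 (limma, Benjamini-Hochberg adjusted p = 0.0092), and without butyrate culture 2 it was called higher at 0.10 (limma, Benjamini-Hochberg adjusted p = 0.038).

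The KRT17 row stood apart in its implied fragments per FPKM. Its bounds imply between 0.97 and 1.08 fragments per unit of FPKM, against 6.51 to 18.6 for the 7 other keratins with a mean of at least 40 FPKM. The implied number was 3900 to 4031 in all 6 cultures, against 14136 to 24078 for KRT8. KRT17 thus came first by FPKM but not by implied fragments, and the reason was not tested. The row also shares 4209 of its 11545 bases with that of LOC101905591, which the RefSeq gene table names KRT42. LOC101905591 rose from 19.2 ± 3.40 to 40.2 ± 1.32 FPKM (SD, n = 3), a log2 fold change of 1.07 ± 0.12 (limma, Benjamini-Hochberg adjusted p = 8.6e-05). The part of this overlap in the level of KRT17 was not tested, and sums are therefore given with and without KRT17.

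The suprabasal keratins were present at low levels, and their sum was 5.98 ± 2.60 FPKM in the control and 7.14 ± 1.03 FPKM in the butyrate group (SD, n = 3). KRT13, a type I keratin of non-cornified stratified epithelia, was at 1.5, 3.99 and 2.29 FPKM in the control and at 1.89, 3.43 and 3.17 FPKM in the butyrate cultures. The groups overlapped (log2 fold change 0.18 ± 0.36; limma, Benjamini-Hochberg adjusted p = 0.68), and the sign turned under quantile normalization (-0.10) and without control culture 1 (-0.14). KRT4, the type II partner of KRT13, was at 0.679, 3.0 and 0.850 FPKM in the control and at 0.199, 0.297 and 0.268 FPKM in the butyrate cultures. All butyrate values lay below all control values, and the log2 fold change was -1.90 ± 0.51 (limma, Benjamini-Hochberg adjusted p = 0.011). Control culture 2 held the highest level of both KRT4 and KRT13, and without it the fall of KRT4 was still called, at -1.29.

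KRT78, a type II keratin of differentiated epithelia, was at 1.20, 0.939 and 0.624 FPKM in the control and at 1.64, 1.52 and 2.05 FPKM in the butyrate cultures (log2 fold change 0.88 ± 0.27; limma, Benjamini-Hochberg adjusted p = 0.021). KRT10, the type I keratin of cornifying epidermis, was at 0.590, 0.537 and 0.348 FPKM against 1.33, 0.935 and 0.800 FPKM (0.92 ± 0.30; limma, Benjamini-Hochberg adjusted p = 0.029). Its partner KRT1 was not tested, being at 0 in all control cultures and at a mean of 0.034 FPKM after butyrate. KRT9, the type I keratin of palm and sole epidermis, was at 0.234, 0.506 and 0.0611 FPKM against 0.764, 0.905 and 0.831 FPKM (1.55 ± 0.47; limma, Benjamini-Hochberg adjusted p = 0.021). KRT3, known from the cornea, overlapped between the groups, at 0 to 0.159 FPKM in the control and 0.132 to 0.300 FPKM in the butyrate cultures, and was not called (limma, Benjamini-Hochberg adjusted p = 0.13). Thus 3 of the 6 tested suprabasal keratins rose and KRT4 fell, a share near the 58.4% of all tested genes called in either direction, and each of the 3 rises rests on at most 28 implied fragments in a culture. All 3 lost their call under quantile normalization and when certain single cultures were left out.

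The hair keratins were nearly silent. Together the inner root sheath and hair shaft rows summed to 0.699 ± 0.398 FPKM in the control and 1.86 ± 0.646 FPKM in the butyrate group (SD, n = 3), and none of the 8 inner root sheath rows was tested. KRT85, a type II keratin of the hair matrix and cuticle, had a tested row at 0.508, 0.312 and 0.378 FPKM in the control and at 0.643, 0.901 and 1.45 FPKM in the butyrate cultures (log2 fold change 1.09 ± 0.34; limma, Benjamini-Hochberg adjusted p = 0.024). Its second row, just beside the first, was not tested. KRT86, a type II keratin of the hair cortex, was at 0 in all control cultures and at 0.0931, 0.246 and 0.376 FPKM after butyrate, from 1, 3 and 4 implied fragments (limma, Benjamini-Hochberg adjusted p = 0.019). Both calls were lost under quantile normalization, and that of KRT85 also in 4 of 6 fits with a culture left out. Over all 33 untested keratin rows, the highest value in any culture was 0.351 FPKM, for the inner root sheath keratin KRT27.

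Summed over the family, keratin FPKM was 7262 to 7562 in the control and 10721 to 11117 in the butyrate cultures, a ratio of 1.48. The means were 7442 and 10979 FPKM, or 1.09% and 1.76% of the summed FPKM of a culture. The simple keratins went from 2924 ± 94.2 to 5776 ± 64.7 FPKM, a ratio of 1.98, and the stratified ones from 4517 ± 89.1 to 5201 ± 159 FPKM, a ratio of 1.15. The share of simple keratins in all keratin FPKM was accordingly 38.8 to 40.1% in the control and 52.3 to 53.2% in the butyrate cultures.

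That shift in share came with KRT17, which made up 51.9% of keratin FPKM in the control and 36.3% in the butyrate group while its own level overlapped. Without KRT17, a choice made after the values were seen, the simple share was 81.6 ± 1.26% and 82.6 ± 0.98% (SD, n = 3) and the groups overlapped. The stratified keratins without KRT17 rose by 0.88 on the log2 scale, near the 0.98 of the simple keratins. With KRT7 and KRT19 taken out of the simple group but kept in the keratin total, the simple share differed by 0.069 percentage points. Unlike the share without KRT17, this is not a share of the remaining keratins.

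**Figure D3:**
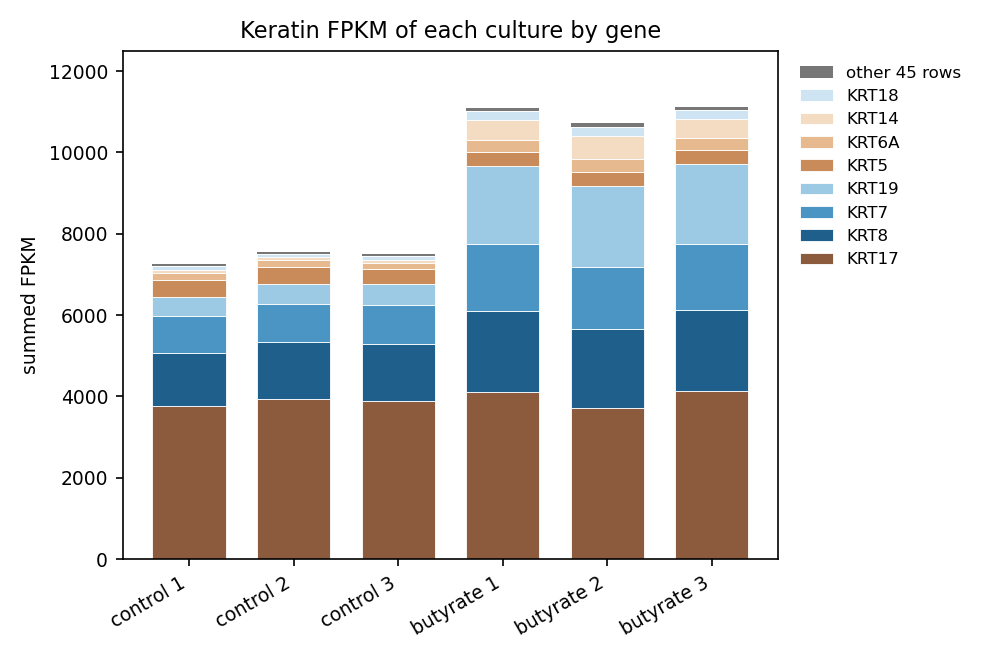
Summed keratin FPKM of each culture, stacked by gene, with simple keratins in blue, basal and stress keratins in brown and the remaining rows in grey. The KRT17 block is of similar height in all 6 cultures, whereas the KRT19 block grows from 492 to 1953 FPKM on average and the whole stack from 7442 to 10979 FPKM.

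Because filaments need both chains, the RNA levels of known partners were set side by side. The amounts of the protein chains were not measured. In each pair with both members above 0 in every culture, the ratio of type II to type I was lower after butyrate, with no overlap between the groups. For KRT8 over KRT18 it was 16.6, 19.4 and 18.2 in the control and 9.02, 8.13 and 9.17 in the butyrate cultures. For KRT7 over KRT19 it went from 1.89 ± 0.04 to 0.819 ± 0.05 (SD, n = 3), so that the more abundant partner changed from KRT7 to KRT19. For KRT5 over KRT14 the order turned too, from 5.53 ± 0.41 to 0.716 ± 0.08. For KRT4 over KRT13, both of which are scarce, it was 0.525 ± 0.20 and 0.0923 ± 0.01. For KRT6A over KRT16 there is no plain ratio in the control group, where KRT16 was at 0. The sign of its log2 change depended on the pseudocount (-0.86 with 0.1 and 0.53 with 1). The pairs of KRT1 with KRT10 and KRT3 with KRT12 held a member below the minimum.

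Over all type II rows against all type I rows, the ratio of summed FPKM was close to unchanged, at 0.649 ± 0.002 in the control and 0.634 ± 0.002 in the butyrate group (SD, n = 3), although the ranges did not overlap. With KRT17 left out it was 4.48 ± 0.10 and 1.56 ± 0.08. These ratios were also chosen after the values were seen. Among the type I keratins, the ratio of KRT17 to KRT14 went from 53.2 ± 0.74 to 8.06 ± 1.18.

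The genes lie in 2 clusters in the UMD3.1 assembly. The cluster on chromosome 5, chr5:27171924-27911617, holds 28 rows over 740 kb, all 27 type II rows and the type I gene KRT18 at its edge beside KRT8. The cluster on chromosome 19, chr19:41514962-42483976, holds the other 25 type I rows over 969 kb. Expression was concentrated at the ends and in small blocks. On chromosome 5, KRT18 and KRT8 at the first end, KRT5 and KRT6A in the middle, and KRT7 and KRT80 at the last end were the 6 rows above 20 FPKM. On chromosome 19, KRT15, KRT19, KRT14 and KRT17 within the last stretch were the rows above 5 FPKM, and 10 of the rows before KRT13 were at 0 in all control cultures.

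Direction was mixed between close neighbours. KRT5 (chr5:27541427-27547279) fell and KRT6A (chr5:27558901-27564155) rose, as did KRT7 (chr5:27828980-27842880) beside KRT80 (chr5:27886653-27911617), which fell. The small fall of KRT5 was not called after rescaling to TPM or under quantile normalization. KRT13 (chr19:42343664-42348206) was not called, while KRT15 (chr19:42356573-42361365) and KRT19 (chr19:42366659-42370493) next to it rose. The cluster on chromosome 19 also contains 39 rows that are not keratin members by name, of which 31 were at 0 in all cultures, including keratin-associated protein genes of the hair shaft. Within it, LOC107131523, LOC515000 and LOC618455 are named KRT38, KRT37 and KRT33B in the RefSeq gene table, and none of these hair keratins was tested.

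**Figure D4:**
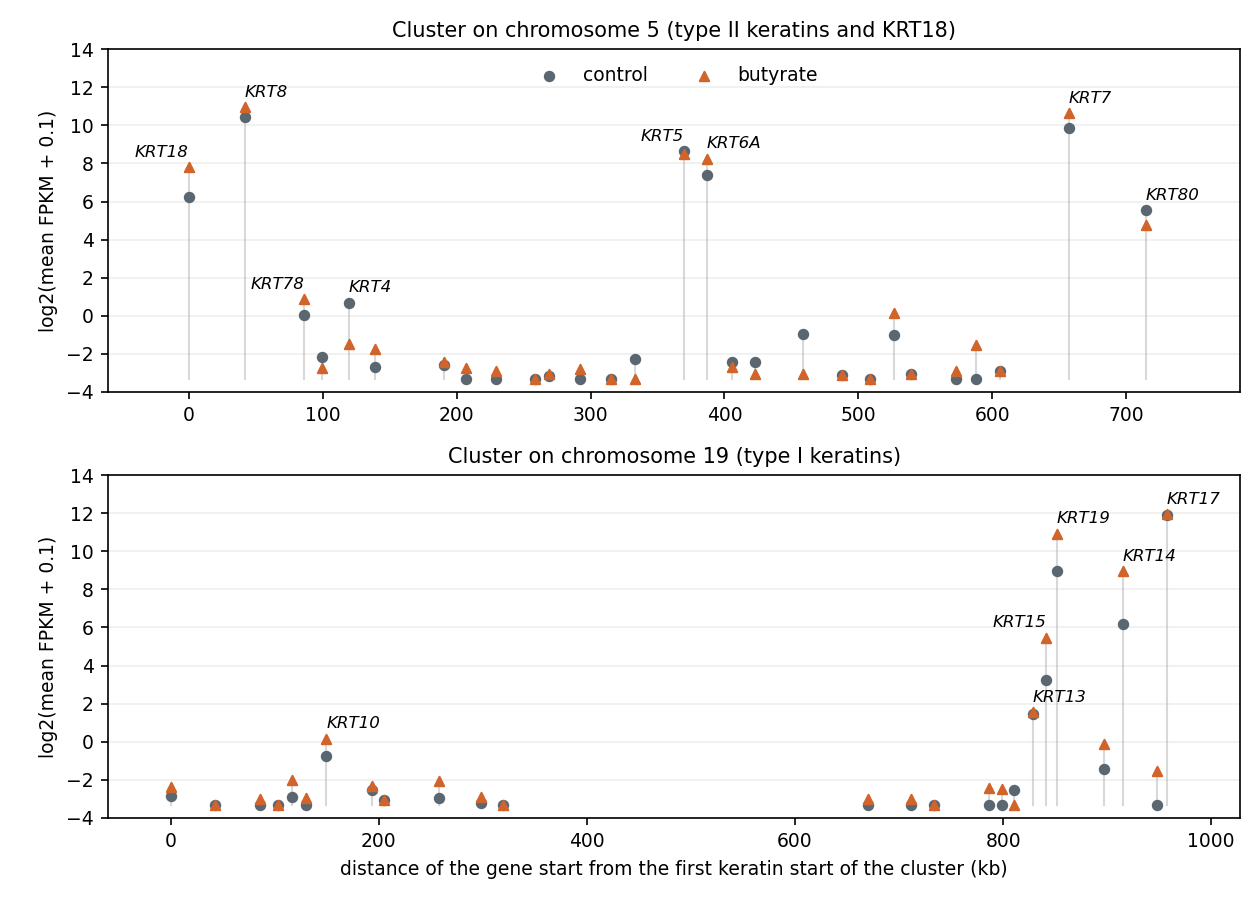
Log2 of mean FPKM + 0.1 (3 cultures a group) against the distance of each gene's start from the first keratin of its cluster, in kb, for the control (grey circles) and butyrate (orange triangles) cultures; names mark rows with a mean of at least 1 FPKM. Most rows sit near the floor in both groups, and the abundant keratins stand in small blocks such as KRT5 with KRT6A or KRT15 with KRT19.

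Genes that work with keratins moved in both directions, and their counts stand against 32.5% of all tested genes higher and 25.9% lower. Of 14 tested genes for other intermediate filaments, 7 rose and 5 fell. The neuronal filament genes PRPH (0.205 ± 0.268 to 16.4 ± 0.91 FPKM) and INA (4.27 ± 0.33 to 33.6 ± 5.25 FPKM) rose most among those with control expression. The lens gene BFSP2 rose from 0 in all control cultures to 0.370 FPKM, and passed the minimum only through its butyrate level. The nuclear lamin genes LMNB1 (40.7 to 2.91 FPKM) and LMNB2 (9.57 to 2.35 FPKM) and the desmin partner SYNC fell most. VIM, the filament of mesenchymal and cultured cells, was at 2464 ± 61.0 FPKM in the control and 3641 ± 64.9 FPKM in the butyrate group (SD, n = 3), and so exceeded every keratin but KRT17 in both groups.

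Of 13 tested plakins and other keratin anchors, 6 rose and 5 fell, with a median log2 fold change of -0.03, beside 32.5% and 25.9% of all tested genes. Epiplakin EPPK1 (2.25), the desmosomal plakophilin PKP1 (2.08) and periplakin PPL (1.26) had the largest rises, and TCHP (-0.85), the keratin organizer FAM83H (-0.67) and PKP2 (-0.41) the largest falls in log2 fold change. DSP, which ties keratin to desmosomes, was at 7.96 ± 0.85 and 7.90 ± 1.66 FPKM and not called (limma, Benjamini-Hochberg adjusted p = 0.90). PLEC and DST have no row of that name.

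Cornified envelope genes were mostly silent. Of 24 genes on the list, 20 have a row (FLG2, SPRR1A, SPRR1B and SPRR2D have none of that name) and 9 were tested, of which 5 rose and TCHH fell, and quantile normalization left 3 higher and 2 lower. Most of the summed level was TGM1, a transglutaminase that cross-links the envelope, which rose from 70.2 ± 2.27 to 81.6 ± 3.93 FPKM (SD, n = 3). CNFN was at 0 in all control cultures and at 1.41 ± 0.19 FPKM after butyrate, the transglutaminase gene TGM5 rose from 0.014 to 0.876 FPKM, and ALOX12B, a lipoxygenase of the skin barrier, from 0.021 to 0.282 FPKM. These 3 genes passed the minimum only through their butyrate level, so the filter favoured their rise. FLG, CASP14, SBSN and S100A7 were at 0 in all cultures. Of 14 tested epithelial transcription factors, 11 rose and SOX15 fell (log2 fold change -1.36), beside 32.5% and 25.9% of all tested genes, with 9 higher under quantile normalization and 13 after rescaling to TPM. ELF3 (5.16), CEBPA (2.39) and ESRP2, a splicing regulator kept on this list (2.35), had the largest log2 fold changes, and TP63, the regulator of basal keratinocytes, rose by 0.38.

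The label of the cells was compared with markers. The summed FPKM of 12 stratified epithelium markers was 768 to 818 in the control and 1271 to 1382 in the butyrate cultures, with DSG1 at 0. Most of that rise was KRT14 itself, and of the 11 tested 6 rose and 3 fell (DSC3, KRT5 and KRT4), beside 32.5% and 25.9% of all tested genes. For 11 general epithelial markers it was 2831 to 3025 and 5794 to 5898, with CLDN7 at 0 and most of the sum in KRT8, KRT7 and KRT19. The adhesion protein gene CDH1 was at 49.8 ± 1.49 and 48.9 ± 2.11 FPKM (SD, n = 3) and was not called, and EPCAM rose from 0.540 to 3.33 FPKM. Of the 9 tested, 8 rose and 0 fell, beside 32.5% and 25.9% of all tested genes, and CDH1 alone was not called. Beyond the keratins, CLDN4 rose from 4.61 to 45.4 FPKM, CLDN1 from 5.56 to 10.9 FPKM and ESRP1 from 0.781 to 2.63 FPKM.

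Markers of other cell types changed as well, with the fibroblast sum higher and the smooth muscle sum lower after butyrate. For 12 fibroblast markers the sum was 2036 to 2092 FPKM in the control and 2924 to 3188 FPKM in the butyrate cultures. Of 10 tested, 9 rose (32.5% of all tested genes did), led in level by COL1A1 (1149 to 1941 FPKM), COL1A2 and COL3A1. Among these rises, COL6A3 passed the minimum only through its butyrate level. For 7 smooth muscle markers the sum was 6491 to 6819 and 2872 to 3480 FPKM. Of these, 4 fell (TAGLN, ACTA2, CNN1 and MYH11), beside 25.9% of all tested genes, while DES rose. MYH11 passed the minimum only through its control level. In the control group TAGLN (3074 FPKM) and ACTA2 (2752 FPKM), contractile genes that cultured stromal cells also use, exceeded every keratin but KRT17. Mesothelium, the lining of the body cavities, is itself rich in KRT7, KRT8, KRT18 and KRT19. Its 6 markers summed to 228 to 238 and 550 to 585 FPKM, nearly all of it MSLN (230 ± 4.94 to 554 ± 18.8 FPKM). The only other tested marker of this list, UPK3B, rose as well, from 2.49 to 9.65 FPKM. CALB2 was at 0 in all cultures and WT1 at 0 in the control. Endothelial (1.97 to 2.16 and 6.53 to 8.47 FPKM) and leukocyte markers (6.59 to 7.89 and 12.2 to 14.2 FPKM), 6 genes each, were low, with CDH5 and PTPRC at 0. The part of other cell types in the keratin changes was not tested.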

How the data were processed

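Per the labels and the study's methods, reads were trimmed with Trim Galore 0.4.1, aligned with STAR to UMD3.1 and quantified per gene with Cufflinks from uniquely mapped reads. The authors deposited FPKM values with 95% confidence bounds for each of the 6 cultures, without read counts, so the number of reads per culture is not known from them. TNC and FOSL2, whose estimates failed, were left out.

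Here log2(FPKM + 0.1) was fitted with limma 3.58.1 in R 4.3.3 (empirical Bayes with trend, 3 control against 3 butyrate cultures, no covariate) over all genes with a mean of at least 0.1 FPKM, with Benjamini-Hochberg and Bonferroni adjustment over all of them. The study's own test needs reads, so its DEG thresholds (adjusted p below 0.05, log2 fold change beyond 2) were applied to this fit. Fold changes on this scale understate those of low genes. Errors are SD for FPKM and ratios and SE for log2 fold changes. Implied fragments were computed from the upper bound. Chromosome numbers follow the order of the sequence accessions, and gene classes follow common keratin nomenclature.

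Members at 1 FPKM or called were named with all values, and from other lists the largest 3 changes each way, or the most abundant markers. Members and lists were chosen with earlier results of these data known. All 51 names were found in the RefSeq table (ARS-UCD2.0), which was used for names alone. Alternatives were other pseudocounts, filters, scalings, no trend, a replicate block, and leaving out each culture. The fit was tested on simulated data.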

Additional observations from a re-analysis of the deposited data

How the results depend on the processing

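Of the keratin calls, those of KRT14, KRT15, KRT19, KRT18, KRT6A, KRT7, KRT8 and KRT80 held under every alternative run, as did those of KRT4 and KRT75 in each fit that tested them, and those of the other low-level rows did not. The count of higher keratins, 13, was 8 with a minimum mean of 1 FPKM, where fewer rows were tested, and 7 under quantile normalization. It was 8 to 13 when single cultures were left out, with 8 without butyrate culture 3. The count of lower keratins, 4, was 2 with that minimum and 3 to 4 with cultures left out, and the upregulated keratin DEGs, 2, were 1 without the variance trend, 3 after rescaling to TPM and under quantile normalization, and 2 to 3 with cultures left out (3 without control culture 3). Under quantile normalization KRT5 was at 0.062 and KRT13 at -0.10. With single cultures left out KRT13 ranged from -0.14 to 0.54. KRT5 lost its call without a filter, without the trend, after rescaling to TPM and in 5 of 6 fits with a culture left out.

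On the log2 scale the rise of summed simple keratins, 0.98, was 1.11 after rescaling to TPM and 0.57 without KRT7 and KRT19, and that of stratified keratins, 0.20, was 0.33 after rescaling and 0.88 without KRT17. The difference in simple share, 13.3 percentage points, was 1.04 without KRT17. It was 0.069 with KRT7 and KRT19 taken out of the simple group but kept in the keratin total. The log2 change of KRT6A over KRT16, -0.86, was -3.68 with a pseudocount of 0.01 and 0.53 with 1, since KRT16 is at 0 in the control, and that of KRT4 over KRT13, -2.09, was -1.01 with a pseudocount of 1. Where not stated, the cause was not tested.

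Same-numbered cultures did not deviate together (correlations 0.0228, -0.0043 and 0.0018), and not every culture correlated best with its own number. The replicate block gave 13 higher and 4 lower keratins. Low levels rest on few fragments, which limits what can be said of them.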
